A study of Gossypium hirsutum with 6 samples.

Results

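The genes described here make or use lipid signals at cell membranes: phospholipases, diacylglycerol kinases, the kinases and phosphatases of phosphatidylinositol and its phosphates, the enzymes of inositol polyphosphates, and a few enzymes that build phosphatidylinositol into other molecules. They were chosen from the authors' gene table by the Swiss-Prot description given to each gene, which had to hold the word phospholipase, phosphoinositide, phosphatidylinositol, diacylglycerol kinase or inositol polyphosphate, and neither GDSL nor transfer protein. The rule used no expression value. It found 369 of 73622 genes, under 101 descriptions, with 180 on A chromosomes, 187 on D chromosomes and 2 unplaced. Upland cotton is an allotetraploid, so most genes have an A and a D copy. The best hit was an Arabidopsis protein for 325 of the 369, and a role named below is the role of that protein, mostly known from Arabidopsis, not one shown in cotton.

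Fibers of Gossypium hirsutum strain 63 were collected 15 days post-anthesis (15DPA, 3 libraries) and 5 days post-anthesis (5DPA, 3 libraries). Both stages came from the same strain, no transgene or treatment is named in the labels, and the design text calls the libraries biological replicates without naming plants, so p-values measure the spread between these libraries. Poly(A) RNA was sequenced, and each gene has a read count and an FPKM value (fragments per kilobase of gene model and per M counts). Library totals were 15.62 to 16.94 M counts at 15DPA and 15.61 to 16.62 M counts at 5DPA.

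Fiber markers were high in both stages. Genes described as E6 protein, alpha expansins, fasciclin-like arabinogalactan proteins and beta tubulins summed to 32567.9 to 45709.0 FPKM in 15DPA fibers, against 19154.7 to 25946.6 FPKM in 5DPA fibers. Of the 103 tested, 33 (32.0%) were higher at 15DPA and 17 (16.5%) lower, where 13.0% and 10.4% of all genes tested were. The most abundant averaged 8422 FPKM, so a few genes weigh heavily in these sums. Histone and mitotic cyclin genes, which mark dividing cells, summed to 1571.7 to 2501.9 FPKM at 15DPA, against 6533.6 to 9794.7 FPKM at 5DPA, and 80 of the 112 tested fell while 0 rose by edgeR (1 rose at an unadjusted p under 0.05, and 0 by DESeq2 or limma). Seed and embryo genes (vicilin, legumin, oleosin, 2S albumin and late embryogenesis descriptions) summed to 608.9 to 913.5 FPKM at 15DPA, against 506.9 to 733.5 FPKM at 5DPA, with 7 of 17 tested higher and 2 lower. Of the 82 genes in this list 65 were not tested, and 41 had no read in any library. Seed coat proanthocyanidin genes summed to 550.3 to 1390.1 FPKM at 15DPA, against 951.0 to 1261.5 FPKM at 5DPA, with none of 9 tested called (1 rise at an unadjusted p under 0.05, 1 by DESeq2, 1 by limma-voom and 0 by limma on log2(FPKM + 1)). Green tissue genes summed to 25.6 to 46.8 FPKM at 15DPA, against 74.0 to 79.8 FPKM at 5DPA, with 6 of 15 tested lower. Vascular genes summed to 14.3 to 38.6 FPKM at 15DPA, against 95.1 to 175.8 FPKM at 5DPA. Only 4 of the 31 vascular genes were tested and 1 was lower, with a median log2 change of -0.06. Most of the vascular sum came from 1 gene, which averaged 65.7 FPKM over the 6 libraries. The sums of several of these lists moved with stage, and the part of these lists in the results below was not tested. In bulk libraries, fewer cells of a type and less RNA per cell cannot be told apart. On the first principal component 15DPA replicates 1, 2 and 3 lay at -104, -34.4 and -130, against 78.1 to 112 for the 5DPA libraries, so 15DPA replicate 2 lay nearest to 5DPA.

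Phosphoinositides are phosphatidylinositol lipids that carry phosphates on the inositol ring, and kinases and phosphatases write and erase these marks so that each membrane holds its own kind. Phospholipases C and D cut membrane lipids to give diacylglycerol and phosphatidic acid, and diacylglycerol kinases turn the first into the second. In tip-growing and elongating plant cells these lipids are known to guide vesicle delivery, the actin cytoskeleton and calcium signals.

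Of the 369 genes, 225 had a mean of at least 1 FPKM over the 6 libraries and were tested. The other 144 were not tested, and 37 of these had no read in any library. The least expressed gene tested had a mean of 1.01 FPKM and the most expressed one left out 0.998 FPKM, and 14 genes left out had a mean of at least 1 FPKM in 1 stage. Of the genes called below, 7 of the 55 rises averaged under 1 FPKM at 5DPA and 1 of the 7 falls under 1 FPKM at 15DPA, so these passed through their higher stage alone. The rises include Gh_D10G265600, Gh_D11G252100, Gh_A02G058000, Gh_D03G045500 and Gh_D08G146600, and the fall is Gh_D01G109500. Among those tested, 58 had a mean of at least 10 FPKM, 2 had over 100, and the median was 5.53 FPKM, against 6.39 FPKM over all genes tested.

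More of these genes rose with fiber age than fell. By edgeR's quasi-likelihood test (adjusted p under 0.05), 55 of the 225 (24.4%) were higher at 15DPA than at 5DPA, where 13.0% of all genes tested were, and 7 (3.11%) were lower, where 10.4% of all genes tested were. In either direction, 23.4% of all genes tested were called. At a change of at least 2-fold, 26 rose and 4 fell, where 6.12% of all genes tested rose and 6.49% fell. Among genes with a mean of at least 5 FPKM, fitted apart, 24 of 122 members rose and 7 fell. These were 19.7% and 5.74%, against 15.6% and 14.3% of all genes in that fit, a narrower gap in rises. In FPKM, all 15DPA libraries were above all 5DPA libraries in 51 of the 225 and below them in 36, which held for 12.9% and 37.3% of all genes tested. The median log2 change of the 225 was 0.28, against -0.04 over all genes tested, and 164 of the 225 had a positive value. The summed level of all 369 was 2153.1, 2210.1 and 2291.0 FPKM in the 15DPA libraries, against 2141.4, 2035.6 and 2052.5 FPKM in the 5DPA libraries. Every 15DPA sum lay above every 5DPA sum, by a margin small beside the sums themselves.

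The counts of rises and falls depend on the scaling of the libraries. TMM factors were 0.862 to 0.985 at 15DPA and 1.06 to 1.16 at 5DPA, so an edgeR log2 change is larger than the ratio of the FPKM values, which are scaled by library totals alone. With library totals alone, the median log2 change was -0.01 for the 225 and -0.33 for all genes tested, and 35 of the 225 rose (15.6%, against 7.19% of all genes tested) and 15 fell (6.67%, against 19.3%). The share of rises among the called genes was then 70.0%, against 88.7% with TMM. By limma on log2(FPKM + 1), also scaled by library totals, 29 rose and 19 fell, where 7.3% of all genes tested rose and 22.3% fell. The count of rises was 21 without 15DPA replicate 1, and 30, 22 and 34 without 5DPA replicate 1, 2 or 3, and the count of falls was then 0, 1, 0 and 1. Calls over all genes tested dropped in the same fits. Rises were then 9.33%, 13.3%, 9.78% and 15.1% of the 225, against 3.74%, 7.17%, 3.72% and 6.67% of all genes tested. Falls were 2.05%, 4.77%, 2.11% and 3.9% of all genes tested. Across all 6 fits that left out 1 library, 20 of the 55 rises and none of the 7 falls stayed called. Without 15DPA replicate 2 or 3 the counts were 57 and 58 rises and 10 falls each. Of all genes tested, 15.1% and 12.8% then rose, and 13.5% and 11.2% fell.

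**Figure D1:**
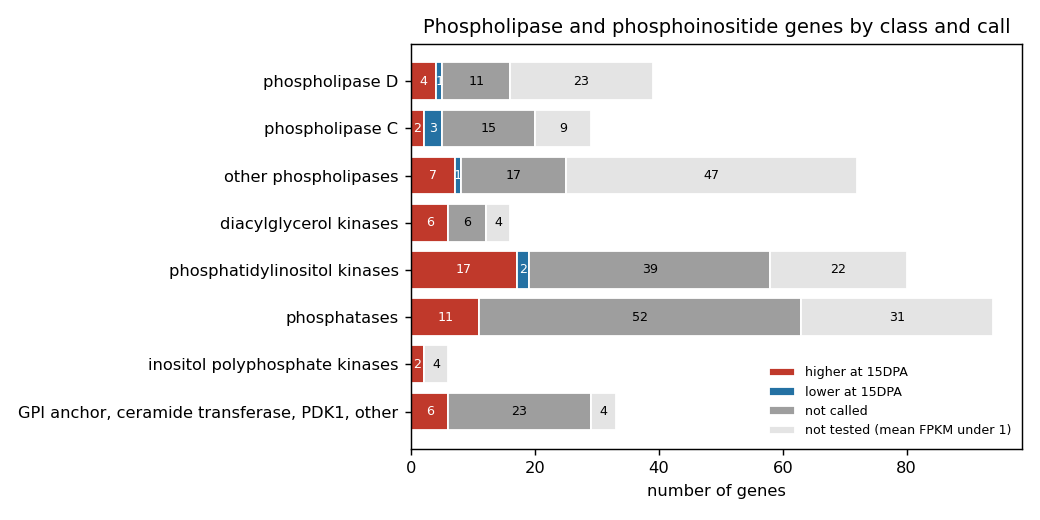
Number of genes in each class (horizontal axis) by call: higher at 15DPA, lower at 15DPA, not called, or not tested because the mean was under 1 FPKM. The phosphatidylinositol kinases hold the most rises, 17 of 58 tested (29.3%), and the phosphatases 11 rises of 63 tested (17.5%) and no fall. Phospholipase C has 3 falls and 2 rises among 20 tested. Over all genes tested 13.0% rose and 10.4% fell.

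**Figure D2:**
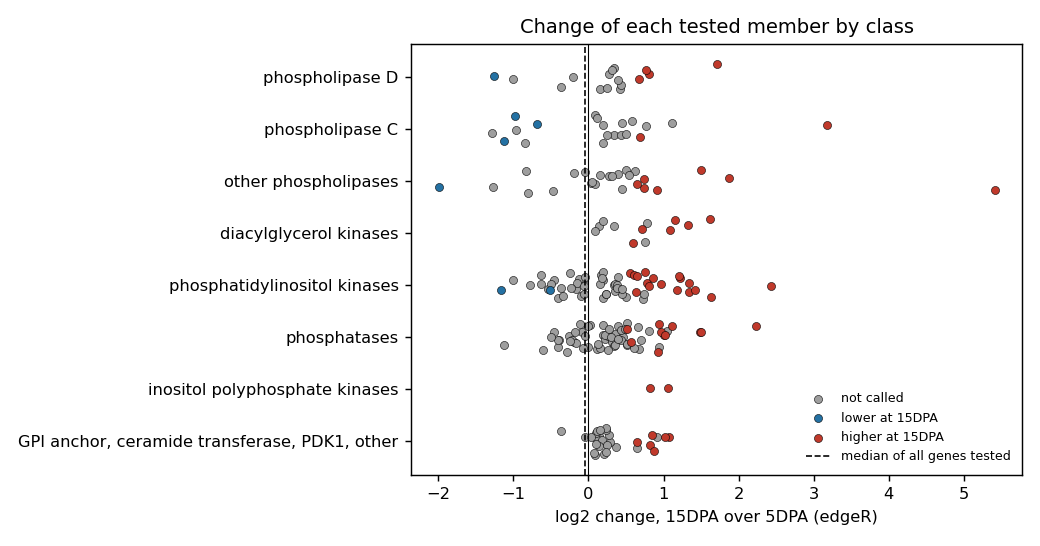
The log2 change (15DPA over 5DPA, edgeR) of each of the 225 tested genes, 1 point a gene, by class, with height within a class carrying no meaning. The dashed line is the median of all genes tested, -0.04, and all 12 tested diacylglycerol kinases lie to the right of it.

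Phospholipase D cuts the head group from membrane phospholipids and leaves phosphatidic acid. This class held the most abundant transcripts of all 369 genes, and their stages overlapped. Gh_D10G078600, a phospholipase D alpha 1 gene on D10 (8957804 to 8962968, + strand), had 200.9, 192.8 and 223.1 FPKM at 15DPA, against 196.1, 162.8 and 205.9 FPKM at 5DPA. Its likely A copy Gh_A10G062800 (A10, 10948218 to 10953768, - strand) had 189.8, 190.1 and 225.8 FPKM at 15DPA, against 196.4, 161.1 and 193.0 FPKM at 5DPA. The stages overlapped in both genes, and the log2 changes were 0.42 ± 0.20 and 0.43 ± 0.20 (SE; edgeR adjusted p = 0.163 and 0.154), turning to -0.24 and -0.27 with quantile normalization. Together they made up 18.4% of the summed FPKM of the 369 genes at 15DPA and 17.9% at 5DPA. Their values rest on 10024 to 14427 reads per gene and library, so counting error is small beside the replicate spread.

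Of the 39 phospholipase D genes 16 were tested, 4 rose (25.0%, against 13.0% of all genes tested) and 1 fell (6.25%, against 10.4%). The rises were 3 of the 5 tested phospholipase D zeta 1 genes, a form with lipid-binding PX and PH domains linked in Arabidopsis to root hair growth, and 1 of the 3 tested beta 1 genes. Of zeta 1, 1 gene rose without 15DPA replicate 1 or any 1 of the 5DPA libraries, and 1 with library totals alone. Among these, chosen after their values were seen, Gh_A02G058000 (zeta 1) had 1.59, 1.67 and 2.36 FPKM at 15DPA, against 0.807, 0.574 and 0.727 FPKM at 5DPA, a log2 change of 1.71 ± 0.29 (edgeR adjusted p = 0.01), and it was called in each fit without 1 library. Its 5DPA values were all under 1 FPKM, so it passed the filter through 15DPA alone. The beta 1 gene Gh_D11G091200 had 11.9, 11.8 and 11.7 FPKM at 15DPA, against 8.61, 8.59 and 9.92 FPKM at 5DPA (log2 change 0.67 ± 0.14, edgeR adjusted p = 0.0178), but its call was lost without 15DPA replicate 1 or 5DPA replicate 1 or 2. In both genes all 15DPA libraries were above all 5DPA libraries. The beta 1 gene with the highest level, Gh_A11G090500 (A11, 7992301 to 7999536, + strand), had 13.4, 13.6 and 16.0 FPKM at 15DPA, against 14.2, 13.6 and 13.9 FPKM at 5DPA, and was not called (0.34 ± 0.15, edgeR adjusted p = 0.139). Phospholipase D delta, a plasma membrane form in Arabidopsis, gave the 1 fall, in Gh_D01G109500 with 0.586, 0.915 and 0.458 FPKM at 15DPA, against 1.65, 2.65 and 1.45 FPKM at 5DPA (-1.26 ± 0.34, edgeR adjusted p = 0.0347), a call lost without any 1 library other than 15DPA replicate 2. The class had 1, 1, 1 and 2 rises without 15DPA replicate 1 or 5DPA replicate 1, 2 or 3, 2 rises with library totals alone, and no fall without any 1 library other than 15DPA replicate 2.

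Phospholipase C genes are of 2 types. The phosphatidylinositol-specific enzymes, which cut phosphatidylinositol 4,5-bisphosphate into diacylglycerol and inositol trisphosphate, had 0 rises and 3 falls among 9 tested of 18. The non-specific enzymes, which cut phosphatidylcholine and related lipids, had 2 rises and 0 falls among 11 tested of 11. Of the whole class 10.0% rose and 15.0% fell, against 13.0% and 10.4% of all genes tested. The difference between the types was not tested, and neither 0 held in every count: at an unadjusted p under 0.05 the specific type had 2 rises and the non-specific type 3 falls, and DESeq2 called 1 rise and 1 fall there, limma-voom 0 and 0, and limma on log2(FPKM + 1) 0 and 3. The 3 non-specific falls at an unadjusted p under 0.05 were the 3 genes described as non-specific phospholipase C1. Their median log2 change was -0.97, and in each every 15DPA library was below every 5DPA library in FPKM. They summed to 4.3 ± 0.6 FPKM at 15DPA, against 10.5 ± 3.0 FPKM at 5DPA (SD over 3 libraries a stage). With library totals alone the specific type had 0 rises and 3 falls and the non-specific type 1 rise and 3 falls. Without 15DPA replicate 1 or 5DPA replicate 1, 2 or 3 the whole class had 1 rise each, without 15DPA replicate 2 it had 4 rises and 2 falls, and without 15DPA replicate 3 it had 3 rises and 5 falls.

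Gh_D01G058200, a phospholipase C 5 gene on D01 (6464622 to 6467297, - strand), had 4.06, 4.07 and 6.88 FPKM at 15DPA, against 11.8, 15.3 and 13.4 FPKM at 5DPA. Gh_D05G087200, a phospholipase C 4 gene on D05 (7318580 to 7322257, - strand), had 3.11, 3.75 and 4.40 FPKM at 15DPA, against 7.52, 7.24 and 7.38 FPKM at 5DPA. In both genes all 15DPA libraries were below all 5DPA libraries, and the log2 changes were -1.12 ± 0.32 and -0.68 ± 0.19 (edgeR adjusted p = 0.0405 and 0.0366). The gene model of the first is only 363 bases long, and its 15DPA values rest on 24 to 39 reads per library. The third fall was Gh_A05G075100, another phospholipase C 4 gene, at 1.51, 2.19 and 2.12 FPKM at 15DPA, against 4.68, 4.77 and 4.57 FPKM at 5DPA (-0.98 ± 0.21, edgeR adjusted p = 0.0186). No fall of the class was called without 15DPA replicate 1 or without any 1 of the 5DPA libraries, and those of Gh_D01G058200 and Gh_D05G087200 were also lost without 15DPA replicate 2.

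The more abundant phospholipase C 2 genes, whose Arabidopsis namesake is the main phosphatidylinositol-specific form of the plasma membrane, were not called. Gh_D06G194500 (D06, 59242450 to 59246374, + strand) had 38.1, 36.2 and 48.7 FPKM at 15DPA, against 49.0, 32.9 and 37.7 FPKM at 5DPA (0.34 ± 0.22, edgeR adjusted p = 0.287). Gh_A05G330000 (A05, 77727736 to 77731449, + strand) had 21.0, 19.0 and 20.2 FPKM at 15DPA, against 23.4, 19.2 and 21.8 FPKM at 5DPA (0.20 ± 0.16, edgeR adjusted p = 0.372). Both genes overlapped between stages.

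Among the non-specific enzymes, Gh_D11G252100 (phospholipase C4; D11, 48486951 to 48491692, - strand), whose Arabidopsis namesake takes part in lipid exchange under phosphate shortage, rose most. It had 5.98, 5.29 and 5.97 FPKM at 15DPA, against 1.17, 0.710 and 0.465 FPKM at 5DPA, a log2 change of 3.18 ± 0.34 (edgeR adjusted p = 0.00298). The stages were far apart, and the call held without each library in turn. Its 5DPA values averaged 0.782 FPKM and rest on 13 to 31 reads per library, so it passed the filter through 15DPA alone. Gh_A13G092700 (phospholipase C3; A13, 35355127 to 35361361, - strand) was the third most abundant of the 369 genes, with 86.9, 74.7 and 66.0 FPKM at 15DPA, against 59.3, 47.5 and 65.7 FPKM at 5DPA. Its stages only just failed to overlap, with 15DPA replicate 3 beside 5DPA replicate 3, and the log2 change was 0.69 ± 0.20 (edgeR adjusted p = 0.0446). That call was lost without 15DPA replicate 1 and without any 1 of the 5DPA libraries (edgeR adjusted p up to 0.153), and with library totals alone (0.40, edgeR adjusted p = 0.115).

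Phospholipases A release a fatty acid from membrane lipids. The class of other phospholipases held 72 genes, of which 25 were tested, 7 rose and 1 fell. The share that rose was above the 13.0% of all genes tested that rose. The share that fell was below the 10.4% of all genes tested that fell. Most of those not tested were of the A1 type, whose members had 4 of 41 tested, and the 5 genes described as DAD1, the anther jasmonate-pathway lipase, and the 8 described as A1-Ibeta2 all stayed under the filter. Without 15DPA replicate 1 or 5DPA replicate 2 the class had 2 rises, where 3.74% and 3.72% of all genes tested rose. Without 15DPA replicate 2 it had 9 rises and 3 falls, where 15.1% of all genes tested rose and 13.5% fell. Without 15DPA replicate 3 it had 6 rises and 2 falls, where 12.8% rose and 11.2% fell. With library totals alone it had 5 rises and 3 falls, where 7.19% rose and 19.3% fell. The fall of the D05 gene described below was lost without 15DPA replicate 1 or 5DPA replicate 2 or 3.

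Both tested genes of the plastid phospholipase A1-Igamma1 rose. Gh_A11G134700 (A11, 14369127 to 14372282, + strand) had 35.6, 29.6 and 43.5 FPKM at 15DPA, against 16.5, 13.3 and 17.5 FPKM at 5DPA, a log2 change of 1.5 ± 0.23 (edgeR adjusted p = 0.00757) that held without each library in turn. It overlaps a gene on the other strand, and reads from the pair cannot be told apart here. Gh_D11G135700 (D11, 12772318 to 12774509, + strand) had 7.89, 6.99 and 13.3 FPKM at 15DPA, against 4.69, 2.04 and 2.82 FPKM at 5DPA (1.87 ± 0.40, edgeR adjusted p = 0.018). In both genes every 15DPA library was above every 5DPA library, though the D gene's call was lost without 15DPA replicate 1 or 5DPA replicate 2 or 3 (edgeR adjusted p up to 0.0647).

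The small secreted phospholipase A2-alpha went the other way. Gh_D05G002000 (D05, 219697 to 221282, - strand) had 5.32, 7.70 and 1.63 FPKM at 15DPA, against 20.7, 30.7 and 19.1 FPKM at 5DPA, a log2 change of -1.99 ± 0.45 (edgeR adjusted p = 0.0212), the largest fall of the 225. Gh_A05G001500 (A05, 284616 to 285781, - strand) had 23.7, 37.0 and 5.62 FPKM at 15DPA, against 66.4, 87.6 and 39.9 FPKM at 5DPA. Every 15DPA library was below every 5DPA library in both, but the A gene was not called (-1.27 ± 0.55, edgeR adjusted p = 0.127), and 15DPA replicate 3 was by far the lowest in each.

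Gh_D10G265600 (D10, 63697223 to 63698940, - strand), described as lysophospholipase BODYGUARD 4 after a family needed for the cuticle, had the largest rise of the 225. It had 15.9, 4.19 and 5.62 FPKM at 15DPA, against 0.255, 0.144 and 0.339 FPKM at 5DPA, or 325, 89 and 110 reads against 5, 3 and 7 reads. The log2 change was 5.41 ± 0.70 (edgeR adjusted p = 0.005), and the call held without each library in turn, but with so few reads at 5DPA its size is loosely set. Of the SGR2 genes, named for a phospholipase-like protein of gravity sensing, 2 of 3 rose, and Gh_A05G239200 had 15.2, 14.9 and 15.2 FPKM at 15DPA, against 11.2, 10.6 and 11.3 FPKM at 5DPA (0.74 ± 0.13, edgeR adjusted p = 0.0114), a call lost without 15DPA replicate 1 or 5DPA replicate 2. Gh_D04G181000 (D04, 52369755 to 52378018, + strand), whose best hit is mouse phospholipase A-2-activating protein, had 20.1, 21.5 and 23.0 FPKM at 15DPA, against 18.3, 21.0 and 21.1 FPKM at 5DPA, and was not called (0.39 ± 0.14, edgeR adjusted p = 0.0801).

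Diacylglycerol kinases phosphorylate diacylglycerol to phosphatidic acid. Of 16 genes 12 were tested, 6 rose (50.0%, against 13.0% of all genes tested) and 0 fell (against 10.4%). The median log2 change was 0.73, and all 12 had a positive value. No fall was seen at an unadjusted p under 0.05 either, nor by DESeq2 or limma. All 4 genes described as diacylglycerol kinase 1, a membrane-anchored form, were among the rises, with log2 changes of 0.59 to 1.62. Gh_D12G197100, the largest of these, had 3.42, 2.89 and 3.83 FPKM at 15DPA, against 1.10, 1.68 and 1.29 FPKM at 5DPA (1.62 ± 0.24, edgeR adjusted p = 0.00738), and it alone of the 6 was called in each fit without 1 library. The class had 2 rises without 15DPA replicate 1, 3, 2 and 2 without 5DPA replicate 1, 2 or 3, and 2 with library totals alone or by limma on log2(FPKM + 1). With library totals its median was 0.44 against -0.33 for all genes tested.

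The 3 most abundant diacylglycerol kinase genes were not called. Gh_D13G241100 (kinase 7; D13, 61557967 to 61564572, + strand) had 12.1, 12.2 and 19.2 FPKM at 15DPA, against 15.1, 12.0 and 15.1 FPKM at 5DPA (0.34 ± 0.25, edgeR adjusted p = 0.33). Gh_A13G238100 (kinase 7; A13, 106433023 to 106439685, + strand) had 7.72, 8.92 and 14.7 FPKM at 15DPA, against 13.2, 10.4 and 11.6 FPKM at 5DPA (0.14 ± 0.27, edgeR adjusted p = 0.739). Both overlapped between stages, with 15DPA replicate 3 the highest library in each. Gh_D13G070800 (kinase 5; D13, 9520522 to 9528796, + strand) had 8.09, 10.0 and 11.8 FPKM at 15DPA, against 12.0, 11.4 and 11.2 FPKM at 5DPA (0.09 ± 0.17, edgeR adjusted p = 0.725), and its sign, like that of Gh_A13G238100, turned with library totals alone.

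Phosphatidylinositol kinases add phosphates to the inositol ring. They held the most rises of any class, 17 of 58 tested (80 genes), with 2 falls, but they are also a large class. Their share of rises was 29.3%, against 24.4% of the 225 members and 13.0% of all genes tested. Their share of falls was 3.45%, against 3.11% and 10.4%. The diacylglycerol kinases had a larger share of rises, 50.0% of 12 tested. Rises numbered 7 without 15DPA replicate 1, 7, 7 and 10 without 5DPA replicate 1, 2 or 3, and 10 with library totals alone, where 3 fell. By limma on log2(FPKM + 1) there were 5 rises and 5 falls. Falls numbered 0, 0, 0 and 1 without the same 4 libraries. The summed level of the class was 401.8 ± 20.8 FPKM at 15DPA, against 344.2 ± 18.2 FPKM at 5DPA (SD over 3 libraries a stage), and an exact permutation test of 3 against 3 libraries cannot go below p = 0.1.

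Among the types of this class, the gamma type of phosphatidylinositol 4-kinase differed most in summed level. The gap in its sum, and that in the class sum, lay in the gamma 4 genes Gh_D08G124200 and Gh_A08G124000 described below. Leaving these genes out, neither mean sum was higher at 15DPA. The gamma type has ubiquitin-like domains, and its Arabidopsis gamma 4 form is reported to phosphorylate proteins. Its 24 genes summed to 206.9, 221.5 and 240.4 FPKM at 15DPA, against 167.1, 162.6 and 157.7 FPKM at 5DPA, and 6 of the 20 tested rose while 0 fell (0 at an unadjusted p under 0.05, by DESeq2 or by limma-voom, and 1 by limma on log2(FPKM + 1)). Of the tested genes of the gamma type 30.0% rose and 0.0% fell, against 13.0% and 10.4% of all genes tested. With library totals alone 4 rose, and 2 rose by limma on log2(FPKM + 1) and without 15DPA replicate 1 or 5DPA replicate 1 or 2. Without 15DPA replicate 2 or 5DPA replicate 3 there were 4 rises, and without 15DPA replicate 3 there was 1 fall. Of the 6, 4 of 8 were described as gamma 4 and 2 of 2 tested as gamma 2 (0 of the gamma 2 genes without 15DPA replicate 1 or 5DPA replicate 1 or 2), while 0 of 6 gamma 7 genes were called, also at an unadjusted p under 0.05, by DESeq2 and by limma.

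The largest shift was in the gamma 4 genes on chromosomes A08 and D08. Gh_D08G124200 (D08, 41324886 to 41326842, + strand) had 54.9, 57.3 and 57.4 FPKM at 15DPA, against 13.1, 10.8 and 14.4 FPKM at 5DPA (2.43 ± 0.17, edgeR adjusted p = 0.00146). Gh_A08G124000 (A08, 78618397 to 78621315, + strand) had 31.6, 32.4 and 27.8 FPKM at 15DPA, against 14.9, 10.1 and 11.2 FPKM at 5DPA (1.63 ± 0.18, edgeR adjusted p = 0.00337). In each, the lowest 15DPA library was well above the highest 5DPA library, and both calls held without each library in turn. The gamma 7 gene Gh_D12G176300 (D12, 49954070 to 49955995, - strand), at a similar level, had 23.0, 27.1 and 34.5 FPKM at 15DPA, against 24.2, 27.5 and 26.9 FPKM at 5DPA, and was not called (0.40 ± 0.18, edgeR adjusted p = 0.146).

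**Figure D3:**
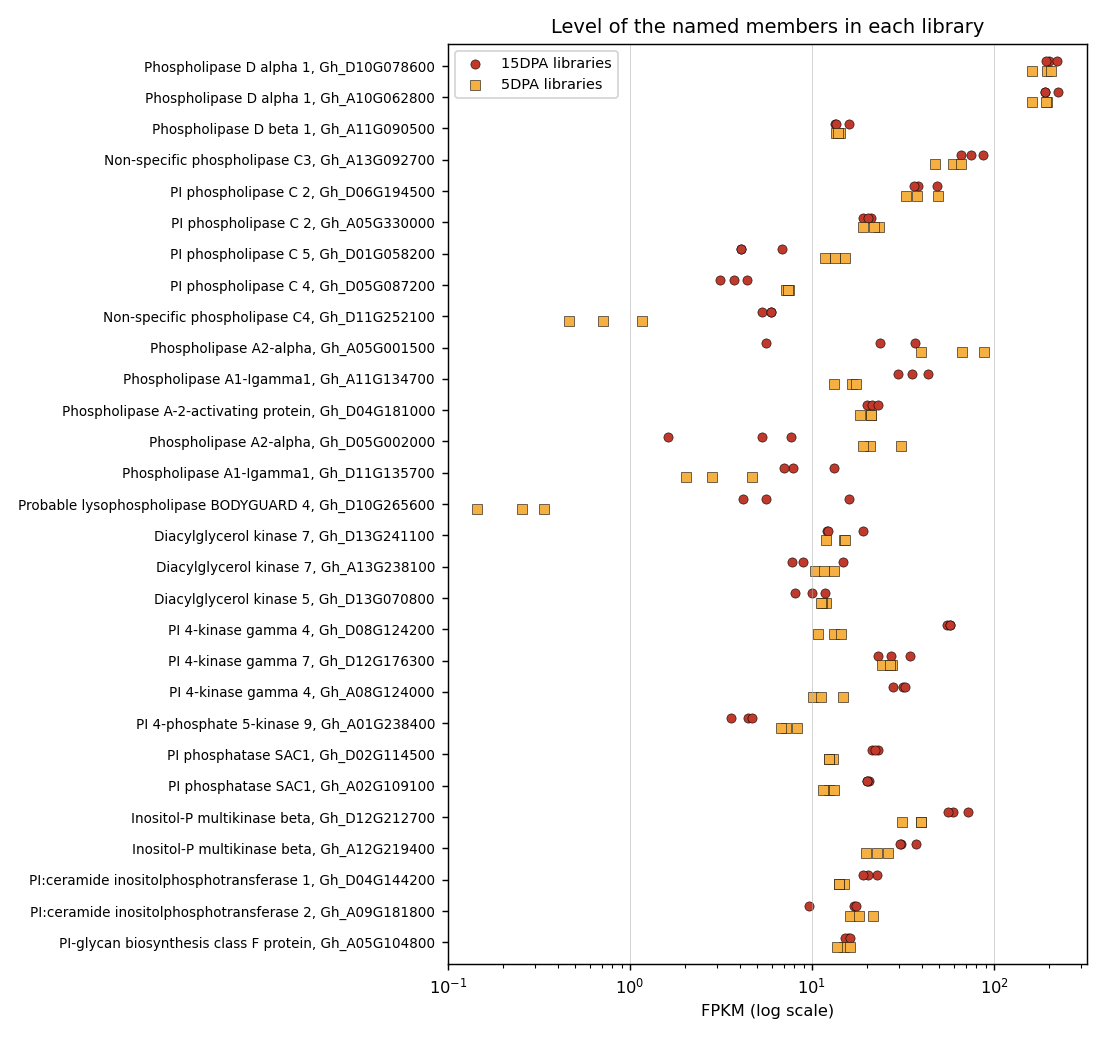
FPKM (log scale) of the genes named by rule, 1 point a library: circles for 15DPA, squares for 5DPA. The 2 phospholipase D alpha 1 genes at the top lie at 161.1 to 225.8 FPKM with the stages mixed, and in the gamma 4 gene Gh_D08G124200 the circles at 54.9 to 57.4 FPKM stand clear of the squares at 10.8 to 14.4 FPKM.

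Phosphatidylinositol 4-kinase alpha 1, which makes the phosphatidylinositol 4-phosphate of the plasma membrane, rose in 3 of 6 tested genes (50.0%, against 13.0% of all genes tested). Only these 3 had a positive log2 change, and the median of the 6 was 0.21, or -0.10 with library totals alone. Rises numbered 2 with library totals alone, and without 15DPA replicate 1 or any 1 of the 5DPA libraries. Limma on log2(FPKM + 1) called 2 rises and 1 fall. Gh_A04G141500, the most abundant of the 3 rises, had 25.3, 24.5 and 20.5 FPKM at 15DPA, against 13.3, 16.0 and 15.2 FPKM at 5DPA (0.96 ± 0.15, edgeR adjusted p = 0.00846), with no overlap of the stages. The FAB1 type makes phosphatidylinositol 3,5-bisphosphate on endosomes and the vacuole, and 7 of its 16 tested genes rose and 1 fell, or 4 and 2 with library totals alone and 1 and 2 by limma on log2(FPKM + 1). By edgeR with TMM these were 43.8% and 6.25%, against 13.0% and 10.4% of all genes tested. With library totals alone 7.19% of all genes tested rose and 19.3% fell. Rises of the type numbered 3 without 15DPA replicate 1 and 3, 3 and 4 without 5DPA replicate 1, 2 or 3, and falls 3 without 15DPA replicate 2. By description, 6 of 10 tested FAB1B genes rose, 3 of them in every fit without 1 library. FAB1D had 1 rise and 1 fall among 3 tested, and FAB1C had no call among 3 by edgeR (1 fall at an unadjusted p under 0.05, and 1 by DESeq2 and by limma). The summed level of the 11 FAB1B genes was 34.6 ± 1.4 FPKM at 15DPA, against 26.6 ± 1.3 FPKM at 5DPA (SD over 3 libraries a stage). That of the 4 FAB1C genes was 14.0 ± 3.6 FPKM at 15DPA, against 20.2 ± 3.3 FPKM at 5DPA. The falling FAB1D gene, Gh_A09G136600, had 0.868, 1.29 and 0.878 FPKM at 15DPA, against 4.0, 2.32 and 2.01 FPKM at 5DPA (-1.17 ± 0.29, edgeR adjusted p = 0.0281), a call lost without 15DPA replicate 1 or 5DPA replicate 1 or 2.

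Phosphatidylinositol 4-phosphate 5-kinases make phosphatidylinositol 4,5-bisphosphate, the substrate of phospholipase C. Only 12 of their 26 genes were tested, with 1 rise and 1 fall. Each was 8.33% of those tested, below the 13.0% of all genes tested that rose and the 10.4% that fell. Gh_A01G238400 (5-kinase 9; A01, 113994467 to 114001451, + strand) had 3.58, 4.46 and 4.68 FPKM at 15DPA, against 7.23, 8.30 and 6.75 FPKM at 5DPA, with all 15DPA libraries below all 5DPA libraries (-0.51 ± 0.15, edgeR adjusted p = 0.0442). That call was lost without any 1 library other than 15DPA replicate 3 (edgeR adjusted p up to 0.15). Gh_D08G146600 (5-kinase 10) rose, at 1.44, 2.20 and 1.97 FPKM at 15DPA, against 0.622, 0.876 and 1.03 FPKM at 5DPA (1.42 ± 0.35, edgeR adjusted p = 0.0268). It rests on 12 to 21 reads per 5DPA library, and its call was lost with library totals alone, and without 15DPA replicate 1 or any 1 of the 5DPA libraries. The 2 genes of phosphatidylinositol 3-kinase, the enzyme of endosomal and autophagic membranes, were both tested and neither was called by edgeR, also at an unadjusted p under 0.05, or by DESeq2 or limma.

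**Figure D4:**
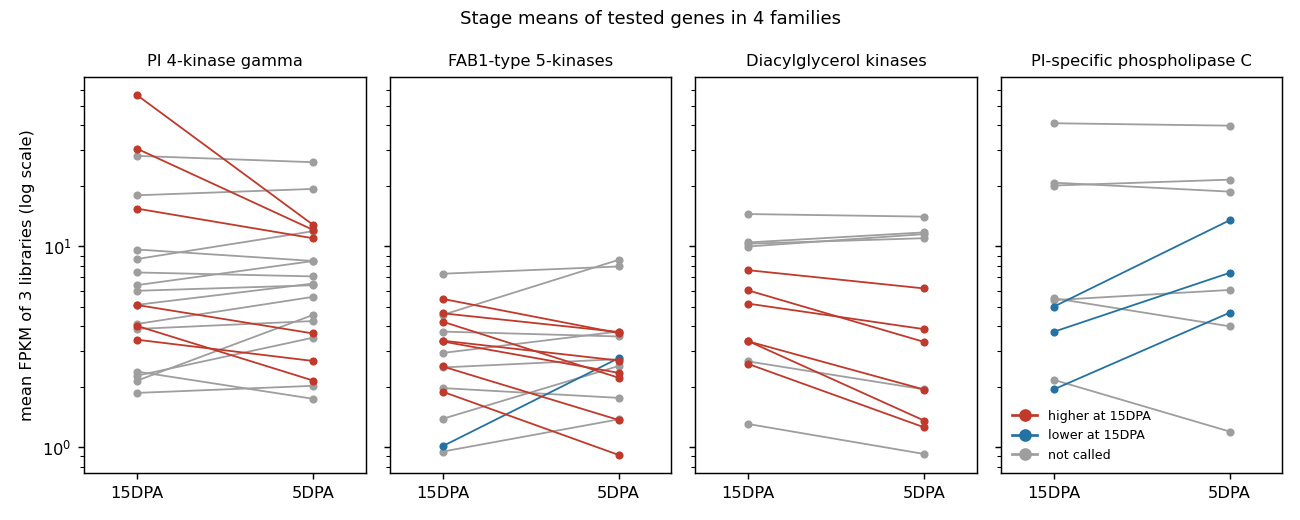
Mean FPKM of 3 libraries (log scale) at 15DPA and 5DPA for each tested gene of 4 families, 1 line a gene, coloured by call. Among the gamma 4-kinases 2 red lines drop steeply to 5DPA, the diacylglycerol kinases that rose lie below the grey lines of the most abundant ones, and the phosphatidylinositol-specific phospholipases C show 3 blue lines and no red one.

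Phosphatases that remove phosphates from these lipids had 11 rises and no fall among 63 tested (94 genes). The share of rises was 17.5%, against 13.0% of all genes tested. At an unadjusted p under 0.05 there were 3 falls. DESeq2 called 18 rises and 1 fall, limma-voom 12 rises and 1 fall, and limma on log2(FPKM + 1) 9 rises and 2 falls. With library totals alone 9 rose and 2 fell, and without a filter 10 rose and 4 fell. The class had 6, 9, 7 and 8 rises without 15DPA replicate 1 or 5DPA replicate 1, 2 or 3. The SAC type had 7 rises among 25 tested (10 by DESeq2, 5 and 2 falls with library totals alone, and 4 without 15DPA replicate 1 or 5DPA replicate 2), 4 of which stayed called in every fit without 1 library, and its 27 genes summed to 172.5 ± 3.1 FPKM at 15DPA, against 149.8 ± 7.7 FPKM at 5DPA (SD over 3 libraries a stage).

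Both SAC1 genes rose with a small spread between replicates. The Arabidopsis protein, also known as fragile fiber 7, acts on phosphatidylinositol 3,5-bisphosphate, and its mutant has altered cell walls in stem fibers and a disturbed actin cytoskeleton. Gh_D02G114500 (D02, 24319607 to 24336280, + strand) had 23.0, 21.4 and 22.3 FPKM at 15DPA, against 13.1, 12.4 and 12.3 FPKM at 5DPA (1.11 ± 0.14, edgeR adjusted p = 0.00436). Gh_A02G109100 (A02, 34442303 to 34458490, + strand) had 20.6, 20.1 and 20.1 FPKM at 15DPA, against 12.3, 13.3 and 11.5 FPKM at 5DPA (1.01 ± 0.12, edgeR adjusted p = 0.00446). No library of 1 stage came near the other stage, and both calls held without each library in turn.

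Other SAC genes rose in part. SAC7, which in Arabidopsis is needed for root hair growth, rose in 2 of 3 genes, SAC9 in 2 of 4 tested and SAC2 in 1 of 6, while 0 of 6 SAC3 genes were called (3 rises at an unadjusted p under 0.05, 2 by DESeq2 and 0 by limma). Gh_D03G002200 (SAC7) had 8.96, 8.46 and 9.36 FPKM at 15DPA, against 5.94, 5.38 and 5.52 FPKM at 5DPA (0.97 ± 0.15, edgeR adjusted p = 0.00857). Gh_D09G226100 (SAC9) had 13.6, 12.2 and 11.2 FPKM at 15DPA, against 8.05, 7.92 and 8.09 FPKM at 5DPA (0.92 ± 0.14, edgeR adjusted p = 0.0081). The stages stood apart in both.

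Of the 48 inositol polyphosphate 5-phosphatases, which act on the lipid and the soluble inositol phosphates, 23 were tested and 3 rose, or 13.0%, the same share as over all genes tested (13.0%). The rises were both tested genes of 5-phosphatase 5 and 1 of 2 tested of 5-phosphatase 10. Gh_D06G208700 (5-phosphatase 10) had 7.17, 6.48 and 5.03 FPKM at 15DPA, against 2.85, 2.09 and 3.20 FPKM at 5DPA (1.48 ± 0.26, edgeR adjusted p = 0.0106). Gh_D03G045500 (5-phosphatase 5) had 2.92, 2.21 and 1.94 FPKM at 15DPA, against 0.874, 0.535 and 0.432 FPKM at 5DPA (2.23 ± 0.37, edgeR adjusted p = 0.00917). Of these 3 genes, those 2 were called in every fit without 1 library. All 5DPA values of Gh_D03G045500 were under 1 FPKM, so it passed the filter through 15DPA alone. None of the 4 tested myotubularin genes or the 3 tested genes of multiple inositol polyphosphate phosphatase was called by edgeR, DESeq2 or limma, though 1 myotubularin gene rose at an unadjusted p under 0.05.

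Inositol polyphosphate multikinase beta phosphorylates soluble inositol trisphosphate on the way to inositol hexakisphosphate. Of its 6 genes only 2 were tested, at high levels, and both rose. Gh_D12G212700 (D12, 54714789 to 54716808, + strand) had 72.0, 59.3 and 56.2 FPKM at 15DPA, against 31.4, 39.7 and 39.7 FPKM at 5DPA (1.06 ± 0.18, edgeR adjusted p = 0.0096), and this call held without each library in turn. Gh_A12G219400 (A12, 97378562 to 97380619, + strand) had 30.9, 30.6 and 37.4 FPKM at 15DPA, against 22.8, 19.8 and 26.3 FPKM at 5DPA (0.82 ± 0.19, edgeR adjusted p = 0.0226). The stages did not overlap in either, and the A gene's call was lost without 15DPA replicate 1 or 5DPA replicate 1 or 2 (edgeR adjusted p up to 0.0838).

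The remaining 33 genes use phosphatidylinositol or bind its phosphates, and the words of their descriptions put them in none of the classes above. They include 4 genes described as 1-phosphatidylinositol phosphodiesterase, which are not in the phospholipase C counts, with 2 tested and 0 called. Of the 33 genes 29 were tested, with 6 rises (20.7%, against 13.0% of all genes tested) and no fall (against 10.4%). Falls also numbered 0 at an unadjusted p under 0.05 and by DESeq2 and limma-voom, and 1 by limma on log2(FPKM + 1). Phosphatidylinositol:ceramide inositolphosphotransferase moves the inositol phosphate head group onto ceramide and so makes inositol sphingolipids, and 3 of its 8 genes rose, or 1 without 15DPA replicate 1 or 5DPA replicate 2. Gh_D04G144200 (transferase 1; D04, 44688512 to 44691587, + strand) had 22.9, 20.4 and 19.0 FPKM at 15DPA, against 15.0, 14.2 and 14.1 FPKM at 5DPA (0.82 ± 0.15, edgeR adjusted p = 0.0124), and no library of 15DPA reached down to 5DPA. Its call was lost without 15DPA replicate 1 or 5DPA replicate 2 (edgeR adjusted p up to 0.0586). Gh_A09G181800 (transferase 2; A09, 74911936 to 74915341, + strand) had 17.0, 17.5 and 9.68 FPKM at 15DPA, against 16.1, 21.6 and 18.2 FPKM at 5DPA, with overlapping stages and no call (-0.05 ± 0.22, edgeR adjusted p = 0.887).

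Glycosylphosphatidylinositol (GPI) anchors tie proteins to the outer face of the plasma membrane. All 15 genes of their assembly were tested and 2 rose (13.3%, against 13.0% of all genes tested), both of subunit C of the transferase that starts the anchor, with Gh_A09G252800 at 11.3, 9.77 and 13.2 FPKM at 15DPA, against 7.37, 6.0 and 7.38 FPKM at 5DPA (1.02 ± 0.22, edgeR adjusted p = 0.0195). Its call was lost without 15DPA replicate 1 or any 1 of the 5DPA libraries. Gh_A05G104800 (A05, 11118112 to 11121936, - strand), whose best hit is human class F protein, had 15.8, 15.2 and 16.2 FPKM at 15DPA, against 15.0, 13.7 and 16.1 FPKM at 5DPA, and was not called (0.37 ± 0.17, edgeR adjusted p = 0.156). Of the 4 tested genes of the lipid-regulated protein kinases PDK1 and PDK2, 1 rose. Without 15DPA replicate 1 or 5DPA replicate 1 or 2 these 33 genes had 1, 3 and 1 rises.

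Genes of neighbouring pathway steps, listed by description and not members of the 369, were counted in the same way. Of the lipid transfer genes, which carry phosphatidylinositol between membranes, 16 of 61 tested rose and 4 fell (median log2 change 0.25). Inositol supply had 6 rises and 2 falls among 17 tested (0.26), and phosphatidate phosphatases, which turn phosphatidic acid into diacylglycerol, 6 rises and 0 falls among 21 (0.20). Synthesis of CDP-diacylglycerol and phosphatidylinositol had 2 rises and 1 fall among 16 (0.01), and the soluble inositol phosphate enzymes 1 rise and 2 falls among 17 (0.05). Phospholipid head group synthesis had 5 rises and 1 fall among 27 (0.14), and triacylglycerol synthesis 4 rises and 1 fall among 21 (0.25). Without 15DPA replicate 1 the rises numbered 5 for lipid transfer, 1 for inositol supply, 1 for phosphatidate phosphatases, 0 for head group synthesis, 0 for CDP-diacylglycerol and phosphatidylinositol synthesis, 0 for the soluble enzymes and 3 for triacylglycerol synthesis. Without 5DPA replicate 2 the same lists had 5, 1, 1, 0, 0, 0 and 3 rises, without 5DPA replicate 1 they had 9, 3, 3, 3, 0, 0 and 3, and without 5DPA replicate 3 they had 9, 5, 3, 1, 0, 0 and 3. Over all genes tested the median was -0.04, with 13.0% called higher and 10.4% lower. The 0 for phosphatidate phosphatases was also 0 at an unadjusted p under 0.05, by DESeq2 and by limma-voom, and 1 by limma on log2(FPKM + 1) and without a filter.

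Copies in the A and D subgenomes were set side by side. Genes with the same description on chromosomes of the same number formed 116 pairs, of which 67 had both genes tested. Both rose in 12 pairs, 1 gene was called in 11, neither in 44, and in no pair were the copies called in opposite directions. The only fall among the genes of these pairs was that of Gh_D05G002000, so opposite calls could hardly occur. The 2 log2 changes had the same sign in 50 of the 67 pairs, most of them with neither or 1 gene called, and 164 of the 225 members had a positive value in any case. Their median distance was 0.23. Pearson's r over these pairs, a description only, was 0.67, and the pairs share the 6 libraries and may share reads. Levels differed more than changes did in some pairs: in 16 of the 67 the mean FPKM of the copies was over 2-fold apart, as for non-specific phospholipase C3 with 66.7 FPKM in Gh_A13G092700 and 2.91 FPKM in Gh_D13G113100. Pairing by description is not proof of shared descent, and reads of near-identical copies may have been split between them by the authors' counting. Over all placed members, 21 of 102 tested A genes rose (20.6%) and 3 fell (2.94%), and 34 of 121 tested D genes rose (28.1%) and 4 fell (3.31%). Over all genes tested 13.0% rose and 10.4% fell. These shares were not counted for all A and all D genes apart, and the difference between the subgenomes was not tested.

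**Figure D5:**
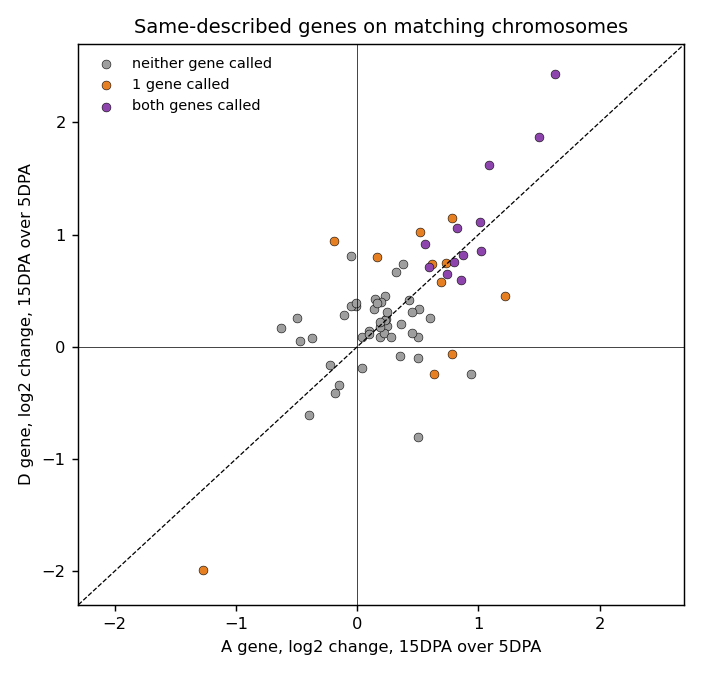
The log2 change (15DPA over 5DPA, edgeR) of the D gene against that of the A gene for the 67 pairs with both genes tested, coloured by how many of the pair were called. The dashed line marks equal change, and the 12 pairs with both genes called are all pairs of rises, so they lie at the upper right.

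In the table's gene order 15 pairs of members are next to each other, and 6 of these have the same description. A further 2 members overlap another gene, and 1 of these, the phospholipase A1-Igamma1 gene Gh_A11G134700, was called.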

How the data were processed

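RNA was sequenced from 6 libraries of cotton fibers, 3 taken at 15 and 3 at 5 days post-anthesis, and grouped by the sample titles. The authors deposited 1 table which, per the file headers, holds both counts of reads and FPKM per gene and library. The deposited counts are whole numbers, not normalized. Each deposited FPKM value was compared with the count over gene length and library total, and 100% matched within a relative tolerance of 0.001. HISAT and StringTie are named without versions, per the submitters' processing notes. The genome build, annotation, use of strand and handling of reads that match several copies were not given in the sources used here, so coordinates stand as the table gives them. The table held 73622 genes and 2 empty lines, which were left out. Descriptions are the table's Swiss-Prot best hits, and 75.5% of the genes had one. No sequence of these genes was used here.

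Genes with a mean of at least 1 FPKM over the 6 libraries (40054) were tested with edgeR 4.0.16 in R 4.3.3 (glmQLFit and glmQLFTest, TMM scaling), two-sided, with Benjamini-Hochberg adjustment over all of them. Every fold change, SE and adjusted p is from that fit unless another is named. The common biological coefficient of variation was 28%. A call is an adjusted p under 0.05, and rose, fell, higher and lower refer to calls. For a model of 1 kilobase, 1 read is worth 0.059 to 0.064 FPKM, and a count of 0 allows up to 3 reads (counting error only). Replicates of a stage differed by more than sampling noise (chi-square over degrees of freedom 13.1 to 37.9), so each counted as 1 sample. The code was tested on simulated counts.

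Alternatives were scaling by library totals or by RLE size factors, limma-voom (limma 3.58.1) with quantile normalization, DESeq2 1.42.0, limma on log2(FPKM + 1) and log2(FPKM + 0.1), no filter, a mean of at least 5 FPKM, the replicate number as a block, and leaving out each library in turn. The genes named by rule are the 3 tested genes of each class with the highest mean FPKM, and up to 6 largest rises and 6 largest falls among called genes whose stage ranges did not overlap and whose mean was at least 5 FPKM in the higher stage. Only 4 falls met it, and 1 gene that met the rule is not reported here. Other genes given with values were picked after their values were seen. The members, gene lists and tests were chosen with earlier results of these data known.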

Additional observations from a re-analysis of the deposited data

How the results depend on the processing

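The count of all genes called, 9357, ran from 2319 to 11434 when 1 library was left out. Without 15DPA replicate 1 it was 2319, and without 5DPA replicate 1, 2 or 3 it was 4779, 2338 and 4234. The 55 members called higher ran from 21 to 58 with 1 library left out, and the 7 called lower from 0 to 10. Members called higher numbered 35 with library totals alone, 29 and 27 with limma on log2(FPKM + 1) and log2(FPKM + 0.1), and 24 with a mean of at least 5 FPKM, where 122 members were tested. The share of rises was 19.7% of these 122, against 15.6% of all genes in that fit. That gap was narrower than in the main fit (24.4% against 13.0%). Members called lower numbered 15 with library totals alone, 12 with DESeq2, 19 and 18 with limma on the same log2 scales, and 11 without a filter. The other alternatives kept all 3 counts within 1.5 times, and the cause of the changes was not tested. The log2 change of the diacylglycerol kinase gene Gh_A13G238100 (0.14) turned to -0.17 with library totals alone, -0.02 with quantile normalization, -0.19 and -0.21 with limma, and -0.24 without 15DPA replicate 3. That of Gh_D13G070800 (0.09) turned to -0.21, -0.02, -0.20 and -0.22 under the same settings, to -0.02 with a mean of at least 5 FPKM, and to -0.08 without 15DPA replicate 3, the lowest of its values with 1 library left out (the highest was 0.19). That of Gh_A09G181800 (-0.05) turned to 0.16 without 15DPA replicate 3 and to 0.03 without 5DPA replicate 2. That of the phospholipase C 2 gene Gh_A05G330000 (0.20) turned to -0.10, -0.01, -0.09 and -0.09 with library totals, quantile normalization and the 2 limma scales, and the phospholipase D alpha 1 genes turned to -0.24 and -0.27 with quantile normalization. None of these genes was called in any setting named here. With the replicate number as a block, 52 members were called higher, 8 lower and 8971 genes in all. Deviations of same-numbered libraries correlated at -0.262, 0.29 and 0.0587, so the numbers were not taken to pair the libraries. The block called the phospholipase A2-alpha gene Gh_A05G001500 (log2 change -1.49, adjusted p = 0.0297) and lost Gh_D01G058200 (adjusted p = 0.052) and Gh_A01G238400 (adjusted p = 0.064). At 15.61 to 16.94 M counts, genes near 1 FPKM rest on few reads, and their sizes of change are loosely set.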

Other observations

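Among the 144 genes under the filter, 14 had a mean of at least 1 FPKM in 1 stage and have no test in the edgeR fit reported. In the list of these, 5-phosphatase 8 gene Gh_D04G136900 averaged 0.116 FPKM at 15DPA, against 1.68 FPKM at 5DPA, and 5-phosphatase 4 gene Gh_A08G212800 averaged 0.109 FPKM at 15DPA, against 1.15 FPKM at 5DPA. In the other direction, phospholipase D zeta 1 gene Gh_D02G062500 averaged 1.20 FPKM at 15DPA, against 0.279 FPKM at 5DPA, and 5-kinase 6 gene Gh_A10G190300 averaged 1.12 FPKM at 15DPA, against 0.304 FPKM at 5DPA. These 4 were picked after their values were seen.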
